A study of Mus musculus with 6 samples.

Results

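The 8 chemokine receptor genes Ccr2, Ccr4, Ccr6, Ccr8, Ccr10, Cxcr3, Cxcr4 and Cxcr6 were read in 6 RNA-seq libraries of CD4 T cells sorted from mouse spleen. They were taken by name, out of 47729 genes in the table, as receptors of effector T cells and of cells kept in a tissue. OFF libraries came from RBPJind mice, in which RBPJ, the DNA-binding partner of activated Notch, depends on doxycycline (Dox). OFF mice drank Dox for 3 weeks and then went without it for 1 week while their T cells matured in the periphery. ON libraries came from RBPJind mice given Dox for all 4 weeks. In both, immature naive cells were taken by the gate CD3+CD4+CD25-CD45RBint, and the labels call OFF cells Notch unresponsive and ON cells Notch responsive during maturation. WT libraries hold mature T cells of wild type mice from the gate CD3+CD4+CD25-CD45RBhi. These too are labelled as treated with Dox, for a time that is not stated. Each group had 2 libraries. No label says which cells carry the inducible allele, what drives it, how old the mice were or whether each library of a group is a different animal. P-values therefore reflect the spread of these 6 libraries alone, which may be technical. Between WT and either RBPJind group, genotype and CD45RB gate changed together and cannot be told apart.

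Chemokine receptors are membrane-spanning receptors that signal through inhibitory G proteins and steer a cell along gradients of small secreted proteins. Naive T cells circulate through lymphoid organs mainly with CCR7 and also carry CXCR4, whereas activated and memory T cells gain receptors for ligands made in inflamed or barrier tissue. CXCR3 is known as a receptor of T helper 1 cells, CCR4 and CCR8 of T helper 2 and regulatory T cells, CCR6 of T helper 17 cells, and CXCR6 of cells kept in tissue.

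The libraries held 17025551 to 19319183 counts in genes. Of the 8 receptors, 7 passed the filter on low counts and were tested among 15780 genes, and Ccr10 did not. The CD4 T cell genes Cd3e (307 to 427 CPM, the usual read counts scaled to library size, here by TMM) and Cd4 (604 to 702 CPM) were high in all 6 libraries. Rbpj averaged 30.7 ± 1.32 CPM in OFF, 88.9 ± 13.1 CPM in ON and 35.7 ± 0.590 CPM in WT (SD, n = 2 each).

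Of the 8 genes 4 lie on chromosome 9 (GRCm38). Cxcr6 (123806475 to 123811760, plus strand) and Ccr2 (124101950 to 124113557, plus strand) belong to a run of receptor genes that starts with Ccr9. Ccr4 (114490316 to 114504916, minus strand) and Ccr8 (120092114 to 120094906, plus strand) lie apart from that run. The others are Ccr6 on chromosome 17 (8236043 to 8257141, plus strand), Ccr10 on chromosome 11 (101172997 to 101175443, minus strand), Cxcr3 on chromosome X (101731535 to 101734269, minus strand) and Cxcr4 on chromosome 1 (128588199 to 128592293, minus strand). Cxcr6 lies inside Fyco1 and Ccr10 inside Cntnap1, on the opposite strand in both cases and with 0 bases of exon in common.

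RefSeq promoters (GRCm38.p6, 250 bases before to 50 after the gene start) were at hand for 7 of the 8 receptors, the missing one being Ccr10. They were searched on both strands for the RBPJ core TGGGAA, and no match of it overlapped a match of another motif searched. The core was found for 2 of the 7 genes, and 25.6% of all 32851 promoters of this length hold it. Shown are the promoters that hold it, those of Cxcr3 (chrX:101734098-101734397, minus strand) and the inner start of Ccr6 (chr17:8242276-8242575, plus strand), and that of Cxcr4 (chr1:128592250-128592549, minus strand), the receptor that ran opposite to the others. Capitals mark the core, which lies on the opposite strand and so reads as its reverse complement; Cxcr4 has no capitals.
Cxcr3: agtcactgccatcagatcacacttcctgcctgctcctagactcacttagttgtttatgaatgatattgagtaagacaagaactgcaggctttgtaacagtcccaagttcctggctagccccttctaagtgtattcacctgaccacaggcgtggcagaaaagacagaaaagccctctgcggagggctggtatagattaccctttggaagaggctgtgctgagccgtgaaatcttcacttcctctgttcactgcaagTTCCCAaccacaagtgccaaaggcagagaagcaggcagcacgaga
Ccr6, inner start: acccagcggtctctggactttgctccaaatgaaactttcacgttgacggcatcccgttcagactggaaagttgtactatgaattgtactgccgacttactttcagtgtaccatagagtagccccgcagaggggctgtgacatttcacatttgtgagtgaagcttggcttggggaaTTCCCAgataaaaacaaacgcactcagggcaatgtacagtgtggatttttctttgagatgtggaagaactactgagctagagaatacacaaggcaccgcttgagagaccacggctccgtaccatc
Cxcr4: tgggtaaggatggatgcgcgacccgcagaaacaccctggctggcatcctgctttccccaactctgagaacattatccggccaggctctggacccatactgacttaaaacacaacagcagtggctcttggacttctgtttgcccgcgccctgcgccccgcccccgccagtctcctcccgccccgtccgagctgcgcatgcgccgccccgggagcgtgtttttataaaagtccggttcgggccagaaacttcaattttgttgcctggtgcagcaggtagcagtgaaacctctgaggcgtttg
The match began 6 bases into the transcript of Cxcr3 and 75 bases before the inner start of Ccr6. The outer start of Ccr6 and the promoters of Ccr2, Ccr4, Ccr8, Cxcr4 and Cxcr6 did not hold these letters in this window. The RUNX core TGTGGT was found for Ccr6, Cxcr3 and Cxcr6 (16.8% of all promoters), the AP-1 site TGANTCA for Ccr4 alone (7.81%), and the T-box core GGTGTGA for none of the 7 (3.98%). A match describes letters and not a bound site.

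Receptors of inflammatory homing were high in both RBPJind groups. Ccr2, whose protein binds the monocyte attractant CCL2, had 18.3 and 62.1 CPM in OFF, 38.1 and 21.6 CPM in ON, and 3.35 and 1.40 CPM in WT. All 4 RBPJind libraries stood above both WT libraries, and OFF held both the highest and the lowest of the 4. It was 16.9-fold higher in OFF than in WT (95% interval 4.79 to 59.9, adjusted p = 0.0311) and 12.6-fold higher in ON than in WT (3.54 to 44.7, adjusted p = 0.0259), the widest intervals among the receptors. Cxcr3, the receptor for the interferon-induced chemokines CXCL9 and CXCL10, had 17.9 and 37.6 CPM in OFF, 26.8 and 20.1 CPM in ON, and 6.82 and 2.56 CPM in WT. Its RBPJind and WT libraries did not overlap, and again the libraries of OFF lay outside those of ON on both sides. The difference from WT was 5.93-fold for OFF (2.58 to 13.6, adjusted p = 0.0333) and 5.02-fold for ON (2.18 to 11.5, adjusted p = 0.0271).

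Cxcr6, the receptor for the membrane-bound chemokine CXCL16, had 9.82 and 25.7 CPM in OFF, 23.5 and 10.9 CPM in ON, and 4.01 and 2.21 CPM in WT. Each RBPJind library stood above both WT libraries. Its rise was called between ON and WT (5.53-fold, 1.96 to 15.6, adjusted p = 0.0446). Between OFF and WT it was not called, at a similar size (5.71-fold, 2.01 to 16.2, adjusted p = 0.0670). The host gene Fyco1 had 125 and 86.9 CPM in OFF, 76.8 and 77.2 CPM in ON, and 113 and 139 CPM in WT, and was lower in ON than in WT, where Cxcr6 was higher (log2 fold change -0.71 ± 0.175, SE; adjusted p = 0.0258).

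Ccr4 and Ccr8, receptors of T helper 2 and regulatory T cells, were also higher than in WT. Ccr4, a receptor for CCL17 and CCL22, had 5.72 and 12.3 CPM in OFF, 10.7 and 10.01 CPM in ON, and 2.45 and 1.80 CPM in WT. The ON libraries nearly coincided while the OFF libraries lay on either side of them. Ccr4 was 4.22-fold higher in OFF than in WT (adjusted p = 0.0163) and 4.86-fold higher in ON than in WT (adjusted p = 0.00542). Ccr8, whose mouse ligands include CCL1 and CCL8, had 2.72 and 5.23 CPM in OFF, 5.42 and 3.47 CPM in ON, and 0.120 and 1.16 CPM in WT. The WT values are 2 and 20 counts, so that 1 of the 2 WT libraries was under the low-count minimum and Ccr8 was tested only because of the RBPJind libraries. Its fitted difference, with that limit, was 6.05-fold in OFF (adjusted p = 0.0455) and 6.78-fold in ON (adjusted p = 0.0198) relative to WT.

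Ccr6, the receptor for CCL20, was counted 16 and 33 times in OFF, 28 and 28 times in ON, and 2 and 4 times in WT. It passed the low-count filter only through the RBPJind libraries and so could be tested only as a gene higher there. Its fitted folds over WT, 7.90 in OFF (2.67 to 23.4) and 7.70 in ON (2.65 to 22.4), are given as a description, and nothing is read from the test. Ccr10, the receptor for the skin and mucosal chemokines CCL27 and CCL28, had 3 and 17 counts in OFF, 0 and 4 in ON, and 4 and 0 in WT. Only OFF 2 stood clear of the others, and a count of 0 allows up to 3 counts, or 0.153 CPM in ON 1 and 0.174 CPM in WT 2. With no filter, edgeR did not call Ccr10 in any comparison (adjusted p = 0.438 for OFF against ON, 0.364 for OFF against WT and 0.986 for ON against WT).

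Cxcr4, the receptor for the stromal chemokine CXCL12 and carried by naive T cells, was the exception in direction. It had 32.0 and 26.6 CPM in OFF, 17.9 and 17.8 CPM in ON, and 59.7 and 52.1 CPM in WT. The 3 groups did not overlap, with WT highest and ON lowest. Cxcr4 was lower than in WT by 1.91-fold in OFF (log2 fold change -0.93 ± 0.14, SE; adjusted p = 0.00588) and by 3.12-fold in ON (-1.64 ± 0.15; adjusted p = 0.000222).

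**Figure D1:**
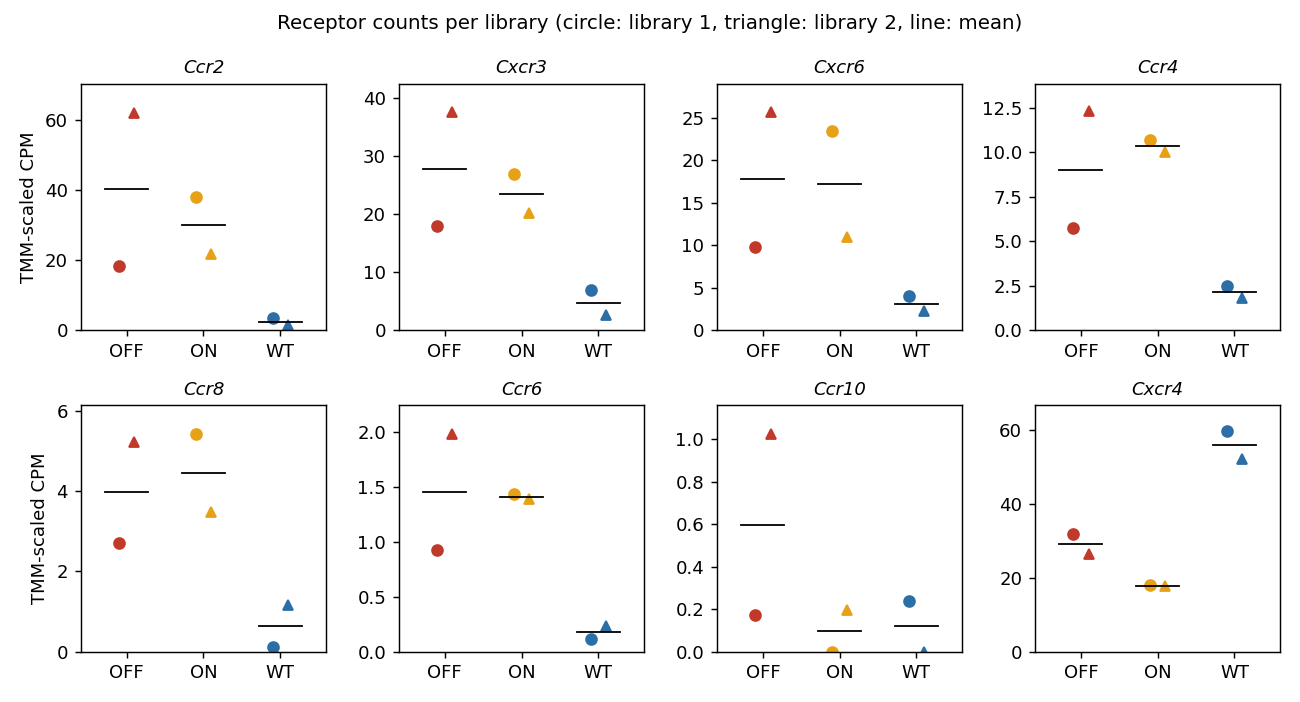
TMM-scaled CPM of each receptor (vertical axis from 0, its own scale in each panel) in the 2 libraries of OFF, ON and WT, with circles for library 1, triangles for library 2 and a line at the mean. For Ccr2, Cxcr3, Cxcr6, Ccr4, Ccr8 and Ccr6 all 4 RBPJind libraries stand above both WT libraries, and for Cxcr4 all 4 stand below.

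Counted over the 8 receptors, 5 were called higher and 1 lower in OFF than in WT, where 6.83% of all tested genes were called, 4.7% higher and 2.14% lower. Between ON and WT, 6 were called higher and 1 lower, where 14.8% of all tested genes were called, 9.68% higher and 5.16% lower. These counts include Ccr6 and Ccr8, which did not reach the low-count minimum in both WT libraries. Of the 5 receptors that did, 3 were called higher and 1 lower in OFF than in WT, where 6.89% of the 14019 genes at that minimum were called, 4.54% higher and 2.35% lower. In ON 4 of the 5 were called higher and 1 lower than in WT, where 15.4% of those genes were called, 9.57% higher and 5.81% lower. The median log2 fold change of the 5 was 2.51 between OFF and WT and 2.33 between ON and WT, beside 0.01 and -0.04 over the 14019 genes. Both comparisons use the same WT libraries and are not independent. OFF and WT did not overlap for 7 of the 8 receptors, 6 higher and 1 lower, as for 55.7% of tested genes, 29.8% higher and 25.8% lower. ON and WT did not overlap for the same 7, as for 59.9% of tested genes, 29.8% higher and 30% lower. In bulk RNA a larger share of cells that carry a receptor and more RNA per cell cannot be told apart.

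Most of these calls were lost when 1 library or another was left out. Leaving out OFF 1, however, ended none of the calls between OFF and WT. The number of receptors called between OFF and WT was 1 without OFF 2, without WT 1 or without WT 2 and 4 without ON 2, and that between ON and WT was 2 without WT 2, 3 without WT 1, 3 without ON 1 and 4 without ON 2. The call of Cxcr4 between ON and WT held in all 14 other analyses (adjusted p up to 0.00341), and that between OFF and WT was lost only without WT 1 (adjusted p = 0.0950). Between OFF and WT limma-voom called 2 receptors, Cxcr3 and Cxcr4, and DESeq2 called 7.

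**Figure D2:**
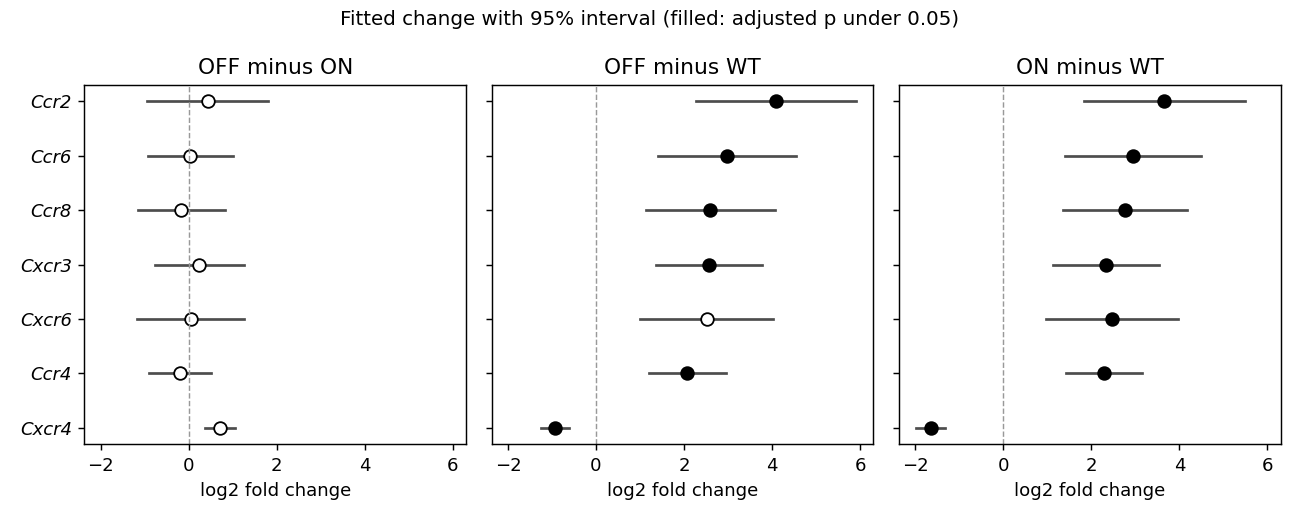
Log2 fold change (horizontal axis) of the 7 tested receptors with its 95% interval between OFF and ON, OFF and WT, and ON and WT, filled where the adjusted p was under 0.05. In both comparisons with WT, Cxcr4 lies left of 0 and the other 6 lie right of it, whereas between OFF and ON no receptor is filled.

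The comparison of OFF with ON, made within 1 genotype and 1 gate, bears on Notch responsiveness in the last week of maturation. Dox itself was also missing from the water of OFF mice then, and its own effects cannot be told apart. By edgeR's quasi-likelihood test 0 receptors were called, where 1.03% of all tested genes were, 0.602% higher and 0.425% lower. At an unadjusted p under 0.05 it was 1, where 3008 of all 15780 tested genes were. DESeq2 called 1 receptor and limma-voom 0. Cxcr4 stood nearest to a call. With the values given above its OFF libraries were both above its ON libraries, by a mean of 1.64-fold (95% interval 1.30 to 2.06, unadjusted p = 0.000829, adjusted p = 0.0586; edgeR). This was the only receptor at an unadjusted p under 0.05 and the only one whose groups did not overlap, as they did not for 46.7% of tested genes (23.4% higher). DESeq2 gave it an adjusted p of 0.0144, and over the 14 other analyses the adjusted p ran from 0.0144 to 0.261.

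For the other 6 tested receptors the ON libraries fell within or beside the range of the OFF libraries, and fitted folds between OFF and ON ran from 0.869 for Ccr4 to 1.35 for Ccr2. Their intervals were wide. That of Ccr2 reached from 0.521 to 3.48, that of Cxcr6 from 0.442 to 2.41, that of Cxcr3 from 0.586 to 2.38, that of Ccr6 from 0.525 to 2.002, that of Ccr8 from 0.447 to 1.78 and that of Ccr4 from 0.536 to 1.41. A change of about this size in either direction was therefore not detectable with 2 libraries a group. Leaving out 1 library could turn the sign itself. Without OFF 2 the log2 fold change was -0.73 for Ccr2, -0.41 for Cxcr3, -0.83 for Cxcr6 and -0.62 for Ccr6, and without OFF 1 it was 0.26 for Ccr4 and 0.25 for Ccr8. The sign also turned without ON 1 for Ccr8, without ON 2 for Cxcr6, and with limma-voom for Ccr6 and Cxcr6.

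Receptors that were high in the RBPJind groups also differed between the libraries of a group. OFF 2 exceeded OFF 1 for all 7 receptors other than Cxcr4, by 3.40-fold for Ccr2, 2.62-fold for Cxcr6, 2.15-fold for Ccr4, 2.15-fold for Ccr6, 2.10-fold for Cxcr3 and 1.93-fold for Ccr8. For Cxcr4 OFF 1 was the higher, by 1.20-fold. Over all tested genes 50.9% were higher in OFF 2 and 1.20% differed more than 2-fold between these libraries on the scale of log2(CPM + 1), a limit that Ccr2, Cxcr3 and Cxcr6 passed. In ON, ON 1 exceeded ON 2 by 2.16-fold for Cxcr6, 1.76-fold for Ccr2, 1.56-fold for Ccr8 and 1.33-fold for Cxcr3. Ccr4, Ccr6 and Cxcr4 differed by 1.07-fold or less, and Ccr10 was higher in ON 2. Over all tested genes 49.6% were higher in ON 2 and 1.86% differed more than 2-fold on the same scale, a limit that Cxcr6 passed. Summed over Ccr2, Ccr4, Ccr6, Ccr8, Cxcr3 and Cxcr6, the libraries had 55.3 and 145 CPM in OFF, 106 and 67.5 CPM in ON, and 16.9 and 9.36 CPM in WT. The spread inside OFF was thus wider than the distance between the means of OFF and ON.

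Levels of different genes were compared per kilobase of merged exons. In ON the order was Cxcr3 (13.6 ± 2.74 CPM per kb, SD, n = 2), Cxcr4 (9.90 ± 0.0389), Cxcr6 (8.91 ± 4.62), Ccr2 (4.41 ± 1.72), Ccr8 (3.78 ± 1.17), Ccr4 (3.35 ± 0.154), Ccr6 (0.607 ± 0.0133) and Ccr10 (0.0574 ± 0.0812). From Cxcr4 to Ccr4 neighbours did not differ beyond the larger SD of the pair. In OFF, Cxcr4 (16.2 ± 2.13 CPM per kb) and Cxcr3 (16.0 ± 8.05) shared the top, followed by Cxcr6 (9.20 ± 5.82), Ccr2 (5.95 ± 4.59), Ccr8 (3.38 ± 1.51), Ccr4 (2.92 ± 1.51), Ccr6 (0.627 ± 0.323) and Ccr10 (0.346 ± 0.348). From Cxcr4 to Ccr4 neighbours did not differ beyond the larger SD of the pair, nor did Ccr6 and Ccr10. In WT, Cxcr4 (30.9 ± 2.97 CPM per kb) led by a wide margin, followed by Cxcr3 (2.71 ± 1.74) and Cxcr6 (1.61 ± 0.658), which did not differ beyond the SD of Cxcr3. All other receptors were under 1 CPM per kb in WT.

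**Figure D3:**
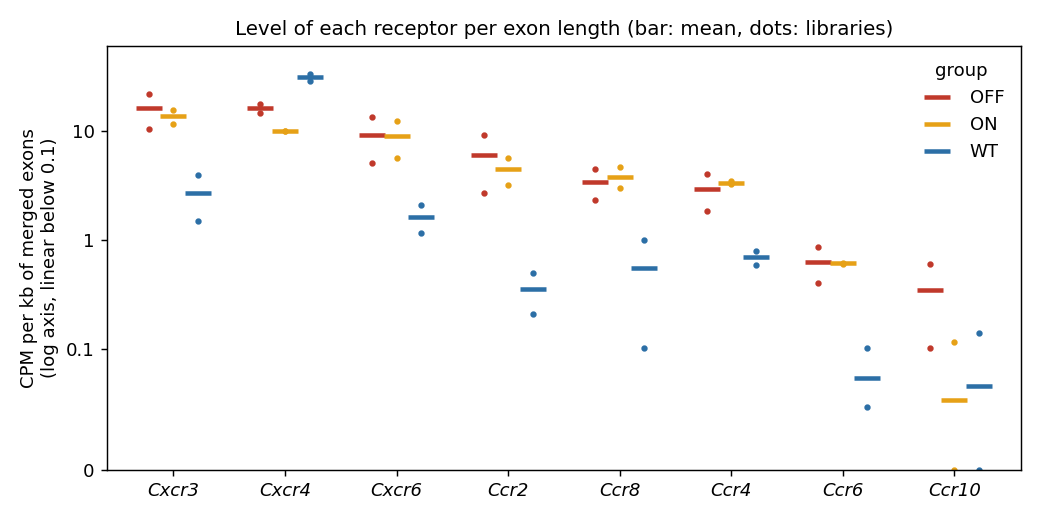
CPM per kb of merged exons (log axis, linear below 0.1) of the 8 receptors in OFF, ON and WT, with a bar at the mean and dots for the 2 libraries. Cxcr4 is far above the rest in WT, whereas the mean of Cxcr3 stands beside that of Cxcr4 in OFF and above it in ON.

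Genes whose profile over the 6 libraries was closest to each tested receptor were found by the root mean square (RMS) difference of log2(CPM + 1) after centring, a description over 6 libraries that share their depth and scaling. Closest to Ccr2 was S100a6, a calcium-binding protein gene, with 23.3 and 67.5 CPM in OFF, 49.4 and 29.7 CPM in ON, and 2.69 and 2.44 CPM in WT (RMS 0.25). Closest to Cxcr3 was Il18rap, a subunit gene of the interleukin-18 receptor (RMS 0.19), which was also the third closest to Cxcr6 (RMS 0.19). Esco2, a gene of sister chromatid cohesion, was closest to Cxcr6 (RMS 0.17). For Ccr4 it was Rilpl2 (RMS 0.17), for Ccr8 the DNA polymerase gene Pole (RMS 0.23). Adding 1 compresses the profile of Ccr8, with 0.120 and 1.16 CPM in WT, so that its likeness to Pole is only rough. Ccr6 is too low for this measure, since adding 1 to values under 2 CPM flattens its profile: its nearest gene, Vim, had 404 and 700.4 CPM in OFF, 545 and 505 CPM in ON, and 228 and 264 CPM in WT (RMS 0.07), a smaller fold over WT than that of Ccr6. Cxcr4 lay closest to Dse, a dermatan sulfate epimerase gene, with 9.53 and 6.91 CPM in OFF, 5.01 and 4.56 CPM in ON, and 19.9 and 18.3 CPM in WT (RMS 0.12), and then to Cyth3 and the sialyltransferase gene St8sia6. 

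Other receptors of migration were read from a list of 21 genes, of which 13 were tested. Of these 4 were higher and 0 lower in OFF relative to WT, with a median log2 fold change of 1.10. In ON 4 rose and 1 fell relative to WT, with a median of 0.98. Of all tested genes 4.7% were higher and 2.14% lower in OFF than in WT, and 9.68% and 5.16% in ON. Cxcr5, the follicular homing receptor, was higher than in WT in OFF (4.69-fold, adjusted p = 0.00313) and in ON (2.78-fold, adjusted p = 0.0132). The call of Cxcr5 in ON was lost without any single ON or WT library. Cx3cr1, the fractalkine receptor, had a fitted 7.70-fold in ON over WT, with 37 and 9 counts in WT. It was tested only because of the RBPJind libraries, so that this fold is a description. Ccr3, an eosinophil and T helper 2 receptor, had 28 and 39 counts in OFF and 5 and 4 in WT and passed the low-count filter only through the RBPJind libraries, so that its fitted 7.28-fold in OFF is a description. Ccr9, the gut homing receptor, rose by 2.14-fold in OFF (adjusted p = 0.0307) and 1.98-fold in ON (adjusted p = 0.0265). Leaving out a single WT library ended both calls of Ccr9, as did leaving out ON 2 for ON and either OFF library for OFF. Between OFF and ON edgeR, DESeq2 and limma-voom called 0 of the 13. In edgeR 8 had an unadjusted p under 0.05, beside 3008 of all 15780 tested genes.

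In the run of genes on chromosome 9, Ccr9, Cxcr6, Ccr3 and Ccr2 were tested, and their log2 fold changes between OFF and WT were 1.10, 2.51, 2.86 and 4.08. Xcr1, Ccr1 and Ccr1l1 of the same run were too low to test, at no more than 0.481 CPM in any library. Receptor genes of this run include close paralogs of Ccr2, and how reads that match more than 1 of them were counted is uncertain. Ccr7, the lymph node homing receptor that naive cells use, had means of 182 CPM in OFF, 169 CPM in ON and 221 CPM in WT and was not called in any comparison (adjusted p between 0.116 and 0.727).

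Ligands of the 8 receptors were almost absent. Of 15 ligand genes 5 were tested (Ccl22, Ccl27a, Cxcl9, Cxcl10 and Cxcl16), and edgeR, DESeq2 and limma-voom called 0 of them in any comparison. At an unadjusted p under 0.05 in edgeR it was 1 between OFF and ON, 0 between OFF and WT and 1 between ON and WT. Of all 15780 tested genes 3008, 3491 and 4812 were under that limit in these comparisons. All 15 together came to 3.41 and 5.11 CPM in OFF, 6.08 and 4.56 CPM in ON, and 5.80 and 3.55 CPM in WT, and the groups overlapped.

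Of the genes listed as acting downstream of chemokine receptors, 34 of 34 were tested. Between OFF and WT 3 were called higher and 0 lower, where 4.7% of all tested genes were higher and 2.14% lower. Between ON and WT 8 were higher and 0 lower, where 9.68% of all tested genes were higher and 5.16% lower. The 8 include Rgs18, with 2 and 1 counts in WT, which passed the low-count filter only through the RBPJind libraries. Rgs16, which shortens G protein signals, had a fitted 10.8-fold in OFF and 18.97-fold in ON over WT, with 6 and 13 counts in WT. Rgs16 and Cx3cr1 reached the low-count minimum in 1 of the 2 WT libraries and were tested only because of the RBPJind libraries. Their fitted folds are therefore a description. Grk3, a kinase that desensitizes receptors, was 3.15-fold higher in OFF (adjusted p = 0.0193) and 4.28-fold higher in ON (adjusted p = 0.00327). Rgs3, another inhibitor of G protein signals, was higher by 1.59-fold in both groups. Without WT 1 or WT 2 the calls of Rgs3 in both groups and of Grk3 in OFF were lost, as was that of Grk3 in OFF without OFF 1 and that of Rgs3 in OFF without OFF 2. Between OFF and ON edgeR, DESeq2 and limma-voom called 0 of the 34. In edgeR 5 had an unadjusted p under 0.05, beside 3008 of all 15780 tested genes.

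Transcription factors of helper lineage and homing were tested for all 30 genes listed. Between OFF and WT 12 were higher and 0 lower, and between ON and WT 12 were higher and 4 lower. Of all tested genes 4.7% were higher and 2.14% lower in OFF than in WT, and 9.68% and 5.16% in ON. Between OFF and ON these shares were 0.602% and 0.425%. Eomes, a T-box factor of effector and memory cells, was 6.92-fold higher in OFF (adjusted p = 0.000575) and 8.88-fold higher in ON (adjusted p = 0.000171) than in WT. Irf4, a factor induced by receptor signals, was 4.01-fold and Maf 3.27-fold higher in OFF than in WT. Between OFF and ON 2 were higher and 1 lower: Foxo1, a factor of naive T cell homing, was 1.83-fold and Bcl6, the follicular helper factor, 2.21-fold higher in OFF, and Maf, a factor of cytokine genes, was 2.30-fold lower (adjusted p = 0.00867, 0.0263 and 0.021). The call of Foxo1 held in all 14 other analyses, that of Maf was lost in 4 of them and that of Bcl6 in 4. Both were lost with only the 4 libraries compared and without WT 2, that of Maf also without OFF 1 and that of Bcl6 also without OFF 2. In the list of 21 homing and adhesion genes, 9 of 20 tested were higher and 0 lower in each comparison with WT, among them Il2rb, the interleukin-2 receptor beta chain gene (6.02-fold in OFF and 9.62-fold in ON). The 9 include Klrg1, a receptor of terminally differentiated effector cells, with 97 and 158 counts in OFF, 158 and 63 in ON, and 7 and 8 in WT, which passed the low-count filter only through the RBPJind libraries. Between OFF and ON edgeR and limma-voom called 0 of the 20 and DESeq2 called 2. In edgeR 6 had an unadjusted p under 0.05, beside 3008 of all 15780 tested genes.

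Markers of cell types that carry these receptors moved with the groups. For comparison, 4.7% of all tested genes were higher and 2.14% lower in OFF than in WT, and 9.68% and 5.16% in ON. All 7 regulatory T cell markers were tested, and 6 were higher in OFF and 7 in ON than in WT; between OFF and ON 1 fell, Il10. The summed level of the 7 markers was 258 and 457 CPM in OFF, 310.2 and 222 CPM in ON, and 56.0 and 47.0 CPM in WT. Foxp3, their defining gene, had 36.6 and 78.7 CPM in OFF, 38.0 and 30.8 CPM in ON, and 2.45 and 2.67 CPM in WT, although cells with surface CD25 were gated out. The 15 myeloid and dendritic cell markers, of which 10 were tested and 4 were higher in OFF and 6 in ON than in WT, summed to 71.5 and 79.6 CPM in OFF, 66.4 and 70.9 CPM in ON, and 25.4 and 22.2 CPM in WT. Lyz2, the most abundant of them, had 16.2 and 25.8 CPM in OFF, 13.1 and 13.7 CPM in ON, and 6.28 and 7.44 CPM in WT.

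Of 13 B cell markers 11 were higher in OFF than in WT, where 4.7% of all tested genes were. Between ON and WT 9.68% of all tested genes were higher and 5.16% lower. In ON 5 were higher than in WT and Ighm fell, and the 13 summed to 392.4 and 481 CPM in OFF, 385 and 332 CPM in ON, and 236 and 212 CPM in WT. Ighm was the most abundant of them, at 179 and 206 CPM in OFF, 140.0 and 125 CPM in ON, and 194 and 177 CPM in WT. Chosen after their values were seen, Ms4a1 had 4.04 and 8.41 CPM and Ighd 5.08 and 10.1 CPM in OFF, so that single B cell genes differed between the OFF libraries about as much as several receptors did, unlike the sum. Of 10 NK and innate-like T cell markers 7 were tested, and 3 were higher in OFF than in WT. In ON 4 rose and Zbtb16 fell relative to WT. Their sum was 28.1 and 51.5 CPM in OFF, 103 and 52.9 CPM in ON, and 9.81 and 5.93 CPM in WT, led by Nkg7, while the NK cell receptor gene Ncr1 was at most 1.082 CPM. Of 2 CD8 T cell markers Cd8a was higher in both groups than in WT (7 and 22 counts in WT). It reached the low-count minimum in 1 of the 2 WT libraries and was tested only because of the RBPJind libraries. The pair summed to 14.2 and 18.0 CPM in OFF, 18.1 and 23.7 CPM in ON, and 14.4 and 13.8 CPM in WT. Plasma cell markers summed to 37.2 and 41.0 CPM in OFF, 40.5 and 28.1 CPM in ON, and 31.1 and 27.2 CPM in WT, and 1 of the 3 tested, Jchain, was higher in ON than in WT, where it had 1 and 3 counts and did not reach the low-count minimum. Erythroid and platelet markers stayed at or under 2.04 CPM in sum, and 0 of these lists' genes were at 0 in all libraries. Of 10 CD4 T cell markers Cd5 was higher in OFF than in WT, and Cd2 was higher and Cd28 lower in ON than in WT. The share of these cell types in the receptor differences was not tested.

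**Figure D4:**
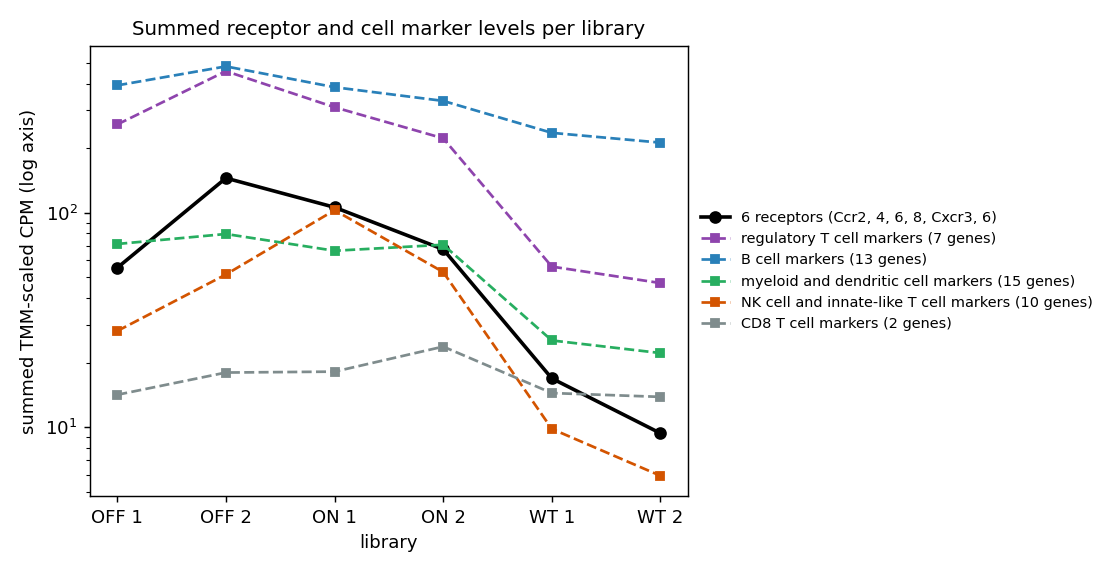
Summed TMM-scaled CPM (log axis) in each of the 6 libraries for 6 receptors (black) and for the marker lists of 5 other cell types. The receptors and the regulatory T cell, NK, myeloid and B cell sums are all lowest in both WT libraries, whereas the CD8 sums of OFF and WT overlap.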

How the data were processed

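RNA-seq of 6 libraries of sorted mouse spleen CD4 T cells was deposited as 1 table of raw read counts per Ensembl gene, not normalized by the authors. Per the labels' protocols, libraries were sequenced on an Illumina NovaSeq instrument and aligned to GRCm38. R 3.6.2 and edgeR were used per the submitters' processing notes. For the aligner, counter, strand and annotation release no version or setting is stated (not given in the sources used here), so reads of genes that overlap on opposite strands may be mixed. The 5 summary rows, for reads unaligned, aligned at low quality or not uniquely, ambiguous or outside genes, held 53.1% to 66.3% of reads per library and were left out of library sizes and tests.

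Identifiers were named from GENCODE M21 (GRCm38): 47310 of 47729 matched. Genes were filtered with filterByExpr (minimum count 10, minimum total 15), scaled by TMM and fitted with all 6 libraries together, using the robust quasi-likelihood test of edgeR. P-values were adjusted by Benjamini-Hochberg over 15780 genes, and an adjusted p under 0.05 was called. The SE is the log2 fold change divided by the root of the F statistic. The 95% intervals use the test's own degrees of freedom. CPM are TMM-scaled, and floors for counts of 0 cover counting error only. The steps were tested on simulated counts. Libraries of a group differed by more than sampling noise (chi-square per degree of freedom 20.1 in OFF, 69.5 in ON and 9.90 in WT).

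All 8 receptors are named. From each of 13 gene lists (189 genes, all in the table), up to 4 called genes of smallest p per comparison and the most abundant marker of each cell type could be named, with Rbpj and the 3 genes most like each tested receptor among protein-coding genes with a mean of at least 5 CPM. Cd3e, Cd4, Ccr7, Fyco1, Ncr1 and the untested genes were named outside this rule. A gene of the receptor list that this rule would name is not reported here. The receptors, lists and tests were chosen with earlier results of these data known. Alternatives were RLE and upper quartile scaling, no filter, a mean CPM of at least 1, DESeq2, limma-voom, only the 4 libraries compared, the replicate number as a block, and omission of each library in turn. A crossed block, and counts over the genes at the minimum count in both WT libraries, were added after seeing the data. Software was limma 3.58.1, DESeq2 1.42.0 and edgeR 4.0.16 under R 4.3.3.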

Additional observations from a re-analysis of the deposited data

How the results depend on the processing

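Across the 14 other analyses the 7 tested receptors kept their direction in every fit of ON against WT and of OFF against WT, and in those comparisons calls were lost in 23 and 29 of 98 receptor fits and gained in 0 and 4. The call of Cxcr6 between ON and WT was lost in 8 alternatives and that of Ccr8 between OFF and WT in 8. Receptors called between ON and WT numbered 4 with no filter and 2 to 7 with a library left out. Between OFF and WT they numbered 3 with no filter, 2 with limma-voom, 3 with the replicate block and 1 to 7 with a library left out. Between OFF and ON there was 1 with DESeq2, 1 with the crossed block and 0 to 0 with a library left out. Directions between OFF and ON turned, without OFF 1 for Ccr4 (0.26) and Ccr8 (0.25), without OFF 2 for Ccr2 (-0.73), Ccr6 (-0.62), Cxcr3 (-0.41) and Cxcr6 (-0.83), with limma-voom for Ccr6 (-0.059) and Cxcr6 (-0.014), without ON 1 for Ccr8 (0.19) and without ON 2 for Cxcr6 (-0.41); the cause was not tested. With 1 library left out the log2 fold change between OFF and ON ran from -0.73 to 1.07 for Ccr2, -0.87 to 0.26 for Ccr4, -0.62 to 0.50 for Ccr6, -0.73 to 0.25 for Ccr8, -0.41 to 0.69 for Cxcr3 and -0.83 to 0.71 for Cxcr6.

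All genes called between OFF and ON numbered 497 with DESeq2, 99 with limma-voom, 58 with only the 4 libraries, 60 with the replicate block, 1210 with the crossed block and 67 to 619 with a library left out. Between ON and WT they numbered 1441 with the replicate block, 3755 with the crossed block and 368 to 2397 with a library left out. Between OFF and WT they numbered 571 with limma-voom, 663 with the replicate block, 2082 with the crossed block and 223 to 1602 with a library left out. Listed genes called between OFF and ON numbered 11 with DESeq2, 2 with only the 4 libraries, 2 with the replicate block, 32 with the crossed block and 2 to 11 with a library left out. They numbered 21 to 66 between ON and WT with a library left out, and between OFF and WT 34 with limma-voom and 16 to 66 with a library left out. The calls of Maf and Bcl6 between OFF and ON were also lost with the replicate block. Libraries of the same number in the titles did not clearly deviate alike. Their deviations from the group means correlated at -0.32 for OFF with ON, -0.28 for OFF with WT and 0.09 for ON with WT. These correlations cannot show whether same-numbered libraries shared an animal, sort or batch. The crossed block, which exchanges the numbers of OFF, was chosen after seeing the data. Where omission leaves a group with a single library, that library is taken to vary as much as those of the other groups. Counts limit Ccr6, Ccr8 and Ccr10 most.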
